A study of Mus musculus with 16 samples.

Results

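The 10 genes described here encode the T-box factors Tbx20, Tbx5, Tbx2 and Tbx3, the GATA factors Gata4, Gata5 and Gata6, and their partners Nkx2-5, Hand2 and Mef2c. They were taken by name, with earlier results of these data known. All 10 were measured, by 27 probe sets whose platform annotation gives that symbol alone, out of 18193 genes and 45037 probe sets. RNA came from 2 tissues of mice aged 30 days, the ascending aorta and the aortic valve, and the mice were either Eln+/+ or Eln+/-. Elastin, the product of Eln, forms the core of elastic fibres, and Eln+/- mice carry 1 inactive copy. The valve specimens held cusp, annulus and root together, so they were not leaflet alone. Each tissue of each genotype had 4 arrays, which makes 4 groups, with 1 specimen per array and no pooling. The labels give neither strain, litter nor sex, and leave unsaid whether specimens that share a number share a mouse.

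These factors form the core regulatory circuit of the developing heart. Gata4, Nkx2-5, Tbx5 and Tbx20 bind together at enhancers of cardiac muscle genes and activate them, and Mef2c and Hand2 act with them. Tbx2 and Tbx3 bind the same kind of site but repress chamber muscle genes, in the atrioventricular canal and, for Tbx3, in the conduction system. Gata4, Gata5, Gata6 and Tbx20 also act in endocardium and in the cushion mesenchyme from which the semilunar valves form, and Gata6 and Mef2c are expressed in vascular smooth muscle as well.

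Promoter windows, running from 250 bases before to 50 bases after a start site, were held by the RefSeq table (GRCm38.p6) for 5 of the 10 genes. Those of Tbx20, Nkx2-5 and Hand2 are shown because these genes differed between the tissues to unequal extents, as described further on. The Tbx20 window is chr9:24774254-24774553 on the minus strand, the Nkx2-5 window chr17:26841516-26841815 on the minus strand, and the Hand2 window chr8:57320733-57321032 on the plus strand. Each is written 5′ to 3′ on the strand of its gene, with capitals for motif matches.
Tbx20: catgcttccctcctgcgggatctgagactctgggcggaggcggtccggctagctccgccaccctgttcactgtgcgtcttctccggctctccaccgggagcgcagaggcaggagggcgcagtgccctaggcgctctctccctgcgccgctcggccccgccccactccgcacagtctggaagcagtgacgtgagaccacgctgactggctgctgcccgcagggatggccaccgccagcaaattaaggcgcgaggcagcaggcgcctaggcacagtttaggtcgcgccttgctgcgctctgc
Nkx2-5: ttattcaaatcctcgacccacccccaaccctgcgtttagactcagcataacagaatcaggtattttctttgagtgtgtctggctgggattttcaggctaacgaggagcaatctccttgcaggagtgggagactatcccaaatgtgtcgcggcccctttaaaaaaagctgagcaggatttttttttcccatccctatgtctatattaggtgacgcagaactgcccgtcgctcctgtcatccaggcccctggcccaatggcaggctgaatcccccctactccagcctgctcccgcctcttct
Hand2: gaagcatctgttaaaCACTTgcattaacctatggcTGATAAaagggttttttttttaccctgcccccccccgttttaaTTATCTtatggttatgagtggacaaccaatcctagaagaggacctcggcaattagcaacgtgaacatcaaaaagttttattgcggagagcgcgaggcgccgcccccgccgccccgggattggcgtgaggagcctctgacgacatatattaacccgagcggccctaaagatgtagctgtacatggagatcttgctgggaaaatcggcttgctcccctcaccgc
The motifs searched on both strands were a GATA site, a T-box site (AGGTGT), an NK2 site (AAGTG) and the MEF2 site. The GATA site was read as AGATAA, also with T as its first letter and with G as its last, and no match shared bases with another in the windows shown. Of 32851 promoter windows of the same length in the table, 29.8% held the GATA site, 13.7% the T-box site, 46.4% the NK2 site and 3.19% the MEF2 site. The Hand2 window held 2 GATA matches, TGATAA on the strand of the gene and AGATAA on the other, and 1 NK2 match on the other strand, so that CACTT and TTATCT stand in capitals. The Tbx20, Nkx2-5 and Gata5 windows held none of the 4 motifs. Mef2c had 3 windows, not shown, each with an NK2 match, and the second also held the T-box site AGGTGT. GC content was 68.3% for Tbx20, 69.7% for Gata5, 51.7% for Nkx2-5 and 50.3% for Hand2. The Mef2c windows had 35.7%, 47.0% and 48.3%.

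All values are log2 of the deposited ratio, that is, of a probe set's signal over its own median across the 16 arrays. They show differences between samples for 1 gene and cannot be compared between genes, since no signal level is kept. Each gene is represented by its probe set of highest SD over the arrays, and a call means an adjusted p (limma with Benjamini-Hochberg adjustment over all 45037 probe sets) under 0.05. Genes are said to have risen or fallen in the valve only where the difference was called. Median ratios of the arrays ranged from 0.957 to 1.01. The 19 cardiac muscle markers had mean log2 ratios of 0.42 to 2.18 on the 8 valve arrays, -3.99 to -2.95 on 6 aorta arrays, and -0.87 and -0.92 on aorta Eln+/+ replicate 2 and aorta Eln+/- replicate 3. The 8 T cell and thymocyte markers averaged 1.83 and 1.01 on aorta Eln+/- replicates 2 and 4, against -0.37 to 0.05 on the other 14 arrays. Xist was high in 4 of 4 arrays of each Eln+/- group and in 1 of 4 of each Eln+/+ group, so genotype and sex largely coincide in these arrays. In such bulk tissue, fewer cells of a type and less RNA per cell cannot be told apart.

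The first question was which of the factors distinguish the valve from the adjoining aorta. In Eln+/+ mice Tbx20 and Gata4 rose in the valve, by 7.88-fold and 4.15-fold, and none of the 10 fell. In Eln+/- mice 6 rose, namely Tbx20, Tbx5, Tbx3, Gata4, Gata5 and Nkx2-5, by 2.26-fold to 9.78-fold, and again none fell. Of all 18193 genes 1.19% were called higher and 0.126% lower in the valve in Eln+/+, and 4.41% higher and 2.65% lower in Eln+/-. The valve and aorta arrays did not overlap for 6 of the 10 genes in Eln+/+, all higher in the valve, against 4.19% of all genes, and for 7 in Eln+/-, against 6.97%. The median difference of the 10 genes was 0.80 in Eln+/+ and 1.33 in Eln+/-, beside -0.05 and -0.0030 over all genes. The genes were chosen with earlier results of these data known, and the SD that picks the representative takes in the tissue difference. These counts and medians therefore describe the 10 genes and do not test them as a set against other genes. Tbx2, Gata6 and Mef2c had differences near 0 in both genotypes.

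**Figure D1:**
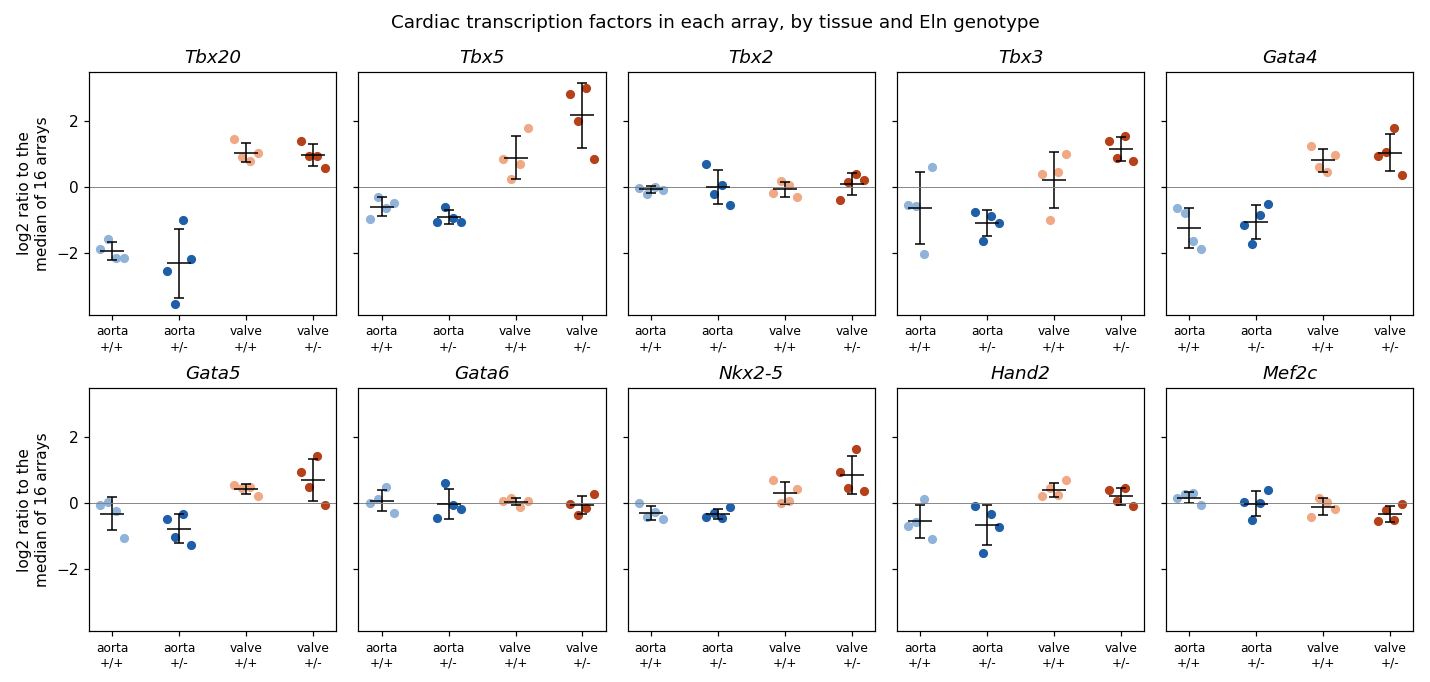
Log2 ratio to the median of the 16 arrays (y axis) for each factor by its representative probe set, in the 4 groups of tissue and Eln genotype. Points are arrays (4 per group) and bars give the mean with the SD. Tbx20 and Gata4 are separated by tissue in both genotypes, Tbx5 and Tbx3 reach their highest values in Eln+/- valve, and Tbx2, Gata6 and Mef2c lie near 0 throughout.

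Tbx20, which is needed for myocardial and cushion development and stays active in adult heart muscle, showed the largest difference of the 10 genes. Its log2 ratios were -1.87, -1.56, -2.16 and -2.14 in Eln+/+ aorta (mean -1.94 ± 0.28, SD, n = 4) and 1.45, 0.91, 0.78 and 1.04 in Eln+/+ valve (1.04 ± 0.29, SD, n = 4). In Eln+/- the aorta gave -2.54, -3.54, -1.002 and -2.18 (-2.32 ± 1.05, SD, n = 4) and the valve 1.41, 0.95, 0.95 and 0.59 (0.98 ± 0.34, SD, n = 4). Every valve array lay above every aorta array, and the Eln+/- aorta arrays were spread the most. The difference was 2.98 ± 0.38 (SE, adjusted p = 0.0012) in Eln+/+ and 3.29 ± 0.38 (SE, adjusted p = 0.00021) in Eln+/-. The highest aorta value, -1.002, belonged to Eln+/- replicate 3, and the highest in Eln+/+ aorta, -1.56, to replicate 2, the same arrays whose cardiac muscle markers stood above the other aorta arrays. Without both of them the differences were 3.10 and 3.73, and both calls held.

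Tbx5, an activator of chamber and conduction genes whose dosage matters in human heart development, was spread more widely in the valve. Log2 ratios were -0.98, -0.29, -0.63 and -0.49 in Eln+/+ aorta (-0.60 ± 0.29, SD, n = 4) and 0.84, 0.24, 0.70 and 1.79 in Eln+/+ valve (0.89 ± 0.65, SD, n = 4). The tissues did not overlap, but the difference of 1.49 ± 0.39 (SE, 2.81-fold) had an adjusted p of 0.102. In Eln+/- the aorta gave -1.06, -0.60, -0.95 and -1.06 (-0.92 ± 0.22, SD, n = 4) and the valve 2.83, 2.01, 3.01 and 0.84 (2.17 ± 0.99, SD, n = 4). There Tbx5 rose in the valve by 3.09 ± 0.39 (SE), which is 8.51-fold (adjusted p = 0.000356). Valve Eln+/- replicate 4, at 0.84, lay with the Eln+/+ valves rather than with its own group. Leaving it out brought the Eln+/+ difference, through the smaller spread alone, past the threshold (adjusted p = 0.0262).

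Tbx3, a repressor of chamber muscle genes in the conduction system, varied most within the Eln+/+ groups. Its log2 ratios were -0.54, -0.57, -2.03 and 0.62 in Eln+/+ aorta (-0.63 ± 1.09, SD, n = 4) and 0.39, -1.001, 0.46 and 1.01 in Eln+/+ valve (0.22 ± 0.86, SD, n = 4). These ranges overlapped, and the difference of 0.85 ± 0.47 (SE) was not called (adjusted p = 0.507). It was 0.38 without aorta replicate 3, at -2.03, and 1.26 without aorta replicate 4, at 0.62. In Eln+/- the aorta values -0.76, -1.65, -0.88 and -1.08 (-1.09 ± 0.40, SD, n = 4) were all below the valve values 1.39, 0.90, 1.55 and 0.81 (1.16 ± 0.37, SD, n = 4). Tbx3 rose there by 2.25 ± 0.47 (SE), or 4.77-fold (adjusted p = 0.00996). Without the 2 aorta Eln+/- arrays with T cell marker signal that difference was 1.98, with an adjusted p of 0.0864.

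Tbx2, the other T-box repressor, did not separate the tissues. Its Eln+/+ values were -0.016, -0.20, 0.016 and -0.097 in the aorta and -0.19, 0.19, 0.064 and -0.30 in the valve. In Eln+/- they were 0.69, -0.21, 0.050 and -0.55 in the aorta and -0.39, 0.14, 0.39 and 0.20 in the valve. The groups overlapped throughout, and the differences were 0.014 (95% interval -0.47 to 0.49) in Eln+/+ and 0.088 (-0.39 to 0.57) in Eln+/-, with adjusted p of 0.989 and 0.891. Under some of the alternatives given in the closing section these small differences changed sign.

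Among the GATA factors Gata4, which acts in myocardium and in valve endocardium and mesenchyme, rose in the valve in both genotypes. Its log2 ratios were -0.65, -0.78, -1.64 and -1.89 in Eln+/+ aorta (-1.24 ± 0.61, SD, n = 4) and 1.23, 0.61, 0.45 and 0.96 in Eln+/+ valve (0.81 ± 0.35, SD, n = 4). Eln+/- aorta gave -1.16, -1.72, -0.86 and -0.52 (-1.06 ± 0.51, SD, n = 4) and Eln+/- valve 0.96, 1.08, 1.78 and 0.38 (1.05 ± 0.57, SD, n = 4). All 8 valve arrays were positive and all 8 aorta arrays negative. The rise was 2.05 ± 0.34 (SE, adjusted p = 0.00846) in Eln+/+ and 2.11 ± 0.34 (SE, adjusted p = 0.00168) in Eln+/-. Eln+/+ aorta replicate 2, of higher cardiac muscle mean, was not the highest of its group with this probe set, at -0.78, but was with the other Gata4 probe set, at -0.64.

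Gata5, known from endocardial differentiation and from semilunar valve defects in mice that lack it, differed less. It gave -0.043, 0.042, -0.22 and -1.04 in Eln+/+ aorta (-0.32 ± 0.49, SD, n = 4) and 0.56, 0.46, 0.48 and 0.22 in Eln+/+ valve (0.43 ± 0.15, SD, n = 4). The tissues did not overlap, and the difference of 0.75 ± 0.30 (SE) was not called (adjusted p = 0.341). In Eln+/- the aorta gave -0.46, -1.01, -0.32 and -1.26 (-0.76 ± 0.44, SD, n = 4) and the valve 0.97, 0.50, 1.44 and -0.051 (0.71 ± 0.64, SD, n = 4). Here Gata5 rose by 1.48 ± 0.30 (SE), or 2.79-fold (adjusted p = 0.00911). The lowest aorta values were those of replicates 2 and 4, the arrays with T cell marker signal, and without both the difference was 1.11 with an adjusted p of 0.107.

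Gata6, which helps to keep vascular smooth muscle differentiated and also acts in the outflow tract, did not separate the tissues. Eln+/+ values were 0.010, 0.12, 0.49 and -0.29 in the aorta and 0.075, 0.15, -0.11 and 0.062 in the valve. Eln+/- values were -0.45, 0.62, -0.048 and -0.18 in the aorta and -0.010, -0.36, -0.15 and 0.29 in the valve. The tissues overlapped in both genotypes. The differences were -0.038 (95% interval -0.50 to 0.42) in Eln+/+ and -0.047 (-0.50 to 0.41) in Eln+/-, with adjusted p of 0.966 and 0.943, and their sign changed under alternatives given in the closing section. The other Gata6 probe sets gave 0.25 and 0.083 in Eln+/+ and -0.28 and -0.13 in Eln+/-, without a call.

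Nkx2-5, the homeobox partner of Gata4 and Tbx5, was measured by 1 probe set. Its log2 ratios were -0.0022, -0.40, -0.28 and -0.47 in Eln+/+ aorta (-0.29 ± 0.21, SD, n = 4) and 0.72, 0.0022, 0.065 and 0.43 in Eln+/+ valve (0.30 ± 0.33, SD, n = 4). The groups only just failed to overlap, and the difference of 0.59 ± 0.24 (SE) was not called (adjusted p = 0.338). Eln+/- aorta gave -0.43, -0.28, -0.45 and -0.12 (-0.32 ± 0.15, SD, n = 4), and Eln+/- valve gave 0.94, 0.47, 1.64 and 0.38 (0.86 ± 0.58, SD, n = 4). Nkx2-5 rose there by 1.17 ± 0.24 (SE), or 2.26-fold (adjusted p = 0.0090). The highest of the 16 values, 1.64, was that of valve Eln+/- replicate 3, which also had the highest cardiac muscle mean, 2.18.

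Hand2, a basic helix-loop-helix factor of the right ventricle, outflow tract and cushions, was higher in the valve without a call. Eln+/+ values were -0.69, -0.58, 0.14 and -1.07 in the aorta (-0.55 ± 0.51, SD, n = 4) and 0.23, 0.46, 0.26 and 0.70 in the valve (0.41 ± 0.22, SD, n = 4). Eln+/- values were -0.086, -1.50, -0.33 and -0.73 in the aorta (-0.66 ± 0.62, SD, n = 4) and 0.41, 0.069, 0.46 and -0.073 in the valve (0.22 ± 0.26, SD, n = 4). By this probe set the tissues did not overlap in either genotype, in Eln+/- only just (-0.086 against -0.073). Neither difference was called: 0.96 ± 0.28 (SE, adjusted p = 0.159) in Eln+/+ and 0.88 ± 0.28 (SE, adjusted p = 0.0861) in Eln+/-. With the mean of its 3 probe sets in place of the representative the Eln+/- difference was 0.69 and passed (adjusted p = 0.027). Singly, the other Hand2 probe sets gave 0.82 and 0.16 in Eln+/+, where the tissues overlapped for both. In Eln+/- they gave 0.76 and 0.44 without overlap, and none of these differences was called.

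Mef2c, a MADS-box factor of heart, skeletal and smooth muscle and of endothelium, had a lower mean in valve than in aorta. Among the representative probe sets, only Gata6 shared this direction in both genotypes, and neither difference of Mef2c was called. Eln+/+ values were 0.15, 0.28, 0.31 and -0.036 in the aorta and -0.41, 0.15, 0.026 and -0.16 in the valve. Eln+/- values were 0.028, -0.51, 0.021 and 0.42 in the aorta and -0.55, -0.21, -0.51 and -0.021 in the valve. The ranges overlapped, with differences of -0.27 (95% interval -0.68 to 0.13) and -0.31 (-0.72 to 0.095) and adjusted p of 0.609 and 0.42. The further Mef2c probe sets gave -0.12, -0.084, 0.044 and 0.19 in Eln+/+, so the sign there depended on the probe set. In Eln+/- they gave -0.30, -0.28, -0.28 and -0.069, and none was called in either genotype.

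**Figure D2:**
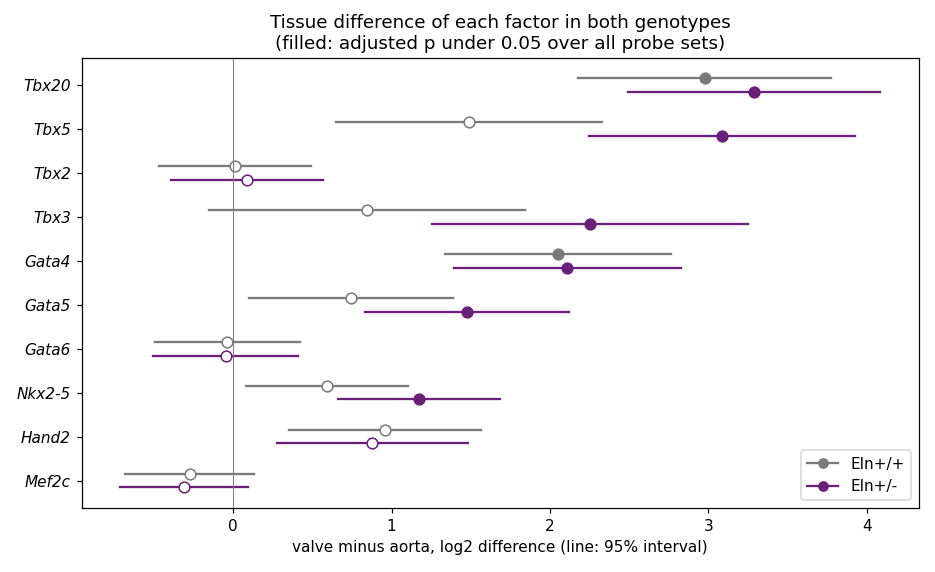
Valve minus aorta log2 difference (x axis) of each factor in Eln+/+ (grey) and Eln+/- (purple), with the 95% interval of the limma fit as a line. Filled points have an adjusted p under 0.05. Tbx20 and Gata4 are filled in both genotypes, Tbx5, Tbx3, Gata5 and Nkx2-5 in Eln+/- alone, and the intervals of Tbx2, Gata6 and Mef2c hold 0.

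Cardiac muscle markers moved with the tissue in the same direction. All 19 were higher in the valve in both genotypes, with a median difference of 3.36 and 14 calls in Eln+/+ and of 4.52 and 19 calls in Eln+/-. The smooth muscle markers were lower in the valve, 9 of 9 in both genotypes, with a median difference of -0.63 and 0 calls in Eln+/+ and of -1.36 and 4 calls in Eln+/-. Among endothelial and endocardial markers 6 of 8 were higher in the valve in both genotypes (medians 0.74 and 0.89), with 1 call in Eln+/+ and 2 in Eln+/-. Of 7 fibroblast markers 5 were higher in Eln+/+ and 4 in Eln+/- (medians 0.72 and 0.61), with 2 calls in each. All 7 macrophage markers were higher (medians 0.58 and 0.62) and all 4 adipocyte markers lower (medians -1.41 and -1.99) in both genotypes, with 0 calls. The part of these markers in the tissue differences of the factors was not tested. Without both aorta arrays of higher cardiac muscle mean, the same numbers of factors were called, 2 in Eln+/+ and 6 in Eln+/-.

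The other probe sets of the genes did not all repeat the representative. In Eln+/+ 5 of the 27 probe sets were called higher in the valve, against 0.848% of all probe sets, and in Eln+/- 12 were, against 3.27%. All 3 Tbx20 probe sets and both Gata4 probe sets were called in both genotypes. The further Tbx20 probe sets gave 2.91 and 2.00 in Eln+/+ and 3.27 and 2.51 in Eln+/-, and the further Gata4 probe set 2.02 and 2.14. The second Tbx5 probe set gave 0.28 in Eln+/+ (adjusted p = 0.751) and 1.11 in Eln+/- (adjusted p = 0.0334). Of the 5 Tbx3 probe sets 3 were called in Eln+/-, at 2.25, 2.08 and 0.84, while the others gave 0.46 and 0.075. In Eln+/+ the same probe sets, in that order, gave 0.85, 0.58, -0.11, 0.40 and 0.0033, and none was called. The second Gata5 probe set differed from the first, at -0.18 and 0.17 without a call. Which transcripts the probe sets of a gene cover was not examined.

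**Figure D3:**
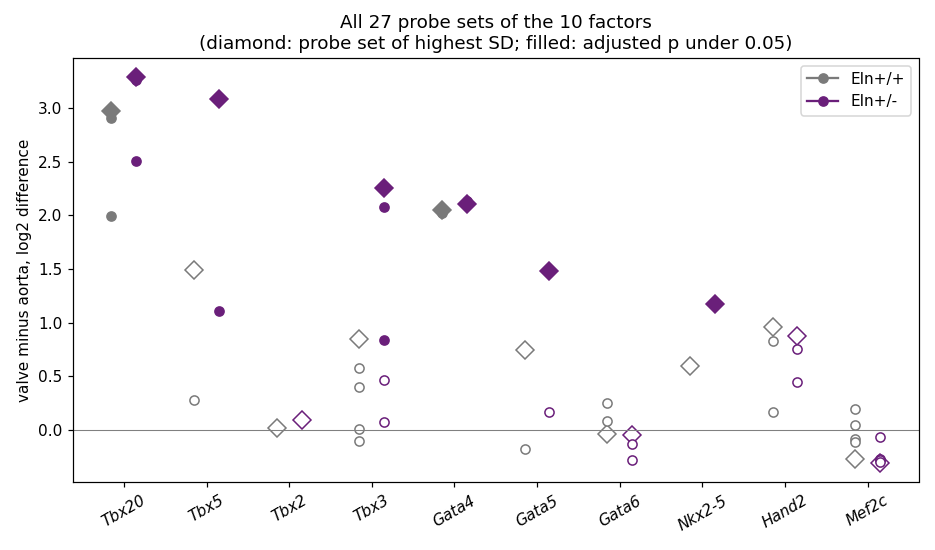
Valve minus aorta log2 difference (y axis) of all 27 probe sets, grouped by gene, in Eln+/+ (grey) and Eln+/- (purple). Diamonds mark the probe set of highest SD that represents the gene, circles the others, and filled symbols an adjusted p under 0.05. All probe sets of Tbx20 and Gata4 are filled in both genotypes, whereas those of Tbx3 and Gata5 are filled in part and in Eln+/- alone.

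The second question was whether loss of 1 Eln copy altered the factors in the aorta. No probe set of the array was called in that comparison, 0% of 45037, and limma gave no member an unadjusted p under 0.05 by its representative, beside 1033 of 18193 genes (5.68%). Adjusted p of the 10 genes ran from 0.897 to 0.995. The aorta groups overlapped for all 10 genes, where 2.78% of genes did not overlap, and the median difference was -0.15 beside -0.016 over all genes. The lowest differences were -0.46 ± 0.47 (SE) for Tbx3, -0.45 ± 0.30 (SE) for Gata5 and -0.38 ± 0.38 (SE) for Tbx20. Leaving out 1 array at a time gave -0.93 to -0.044 for Tbx3, the ends being without Eln+/+ replicates 3 and 4, and -0.69 to -0.28 for Gata5, without Eln+/+ replicate 4 and Eln+/- replicate 4. For Tbx20 the Eln+/- mean rested on replicate 2 at -3.54, and without both arrays with T cell marker signal the difference was 0.17. The 95% interval of Gata4 ran from -0.54 to 0.89 and that of Tbx5 from -1.16 to 0.52, so changes of up to about these sizes could not have been told from none.

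A further Gata6 probe set, not the representative, stood apart in the aorta and is named here after its values were seen. It was the only one of the 27 whose aorta groups did not overlap, where 2.84% of all probe sets did not. Log2 ratios were -0.17, -0.51, -0.27 and -0.31 in Eln+/+ and 0.25, 0.20, 0.18 and 0.52 in Eln+/-. All 4 Eln+/- arrays were above all 4 Eln+/+ arrays, by 0.60 ± 0.14 (SE), with an unadjusted limma p of 0.000702 and an adjusted p of 0.867. The representative Gata6 probe set gave -0.096 ± 0.22 (SE) in the same comparison, and the third Gata6 probe set gave 0.047 ± 0.12 (SE). In the valve the further probe set that stood apart in the aorta gave 0.073 ± 0.14 (SE).

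In the valve, too, the genotype changed no factor past the threshold. No probe set was called, 0% of 45037, and adjusted p of the 10 genes ran from 0.423 to 0.979. Tbx5 and Nkx2-5 had unadjusted p under 0.05 by limma, 2 of 10 genes, beside 1724 of 18193 genes (9.48%). The valve groups overlapped for all 10 genes, where 5.33% of genes and 5.04% of probe sets did not overlap. The median difference was 0.19 beside 0.032 over all genes. Tbx20 and Gata4, which were called between the tissues in both genotypes, differed between the valve groups by -0.067 ± 0.38 (SE) and 0.24 ± 0.34 (SE).

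Tbx5 had the largest genotype difference in the valve among the representative probe sets, 1.28 ± 0.39 (SE, 2.43-fold), with an unadjusted p of 0.00527 and an adjusted p of 0.423. Of the 4 Eln+/- valves 3 lay at 2.01 to 3.01, above the highest Eln+/+ valve at 1.79, and the other, at 0.84, did not. Tbx3 differed by 0.95 ± 0.47 (SE, adjusted p = 0.599), with Eln+/- valves at 0.81 to 1.55 and Eln+/+ valves at -1.001 to 1.01. Further Tbx3 probe sets differed by 1.40 ± 0.46 (SE, unadjusted p = 0.00799, adjusted p = 0.424) and 0.67 ± 0.23 (SE, unadjusted p = 0.0098, adjusted p = 0.43), with overlapping groups. The first of these exceeds the difference of Tbx5, and both were named after their values were seen. The remaining Tbx3 probe sets differed less, by 0.26 ± 0.20 (SE) and 0.11 ± 0.16 (SE). Nkx2-5 differed by 0.55 ± 0.24 (SE, adjusted p = 0.537), and its groups overlapped between 0.38 and 0.72. Gata5 differed by 0.28 ± 0.30 (SE), Tbx2 by 0.14 ± 0.23 (SE), and Gata6, Hand2 and Mef2c by -0.10, -0.19 and -0.22.

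Muscle markers stood at other levels in the Eln+/- than in the Eln+/+ valves, without a call. The cardiac muscle mean was 0.84 ± 0.38 (SD, n = 4) in Eln+/+ valves and 1.72 ± 0.37 (SD, n = 4) in Eln+/- valves, where all 19 markers were higher in Eln+/- (median difference 0.95) and 0 were called. The smooth muscle mean was -0.23 ± 0.48 (SD, n = 4) and -1.19 ± 0.74 (SD, n = 4), with 9 of 9 markers lower in Eln+/-. Eln+/+ replicate 4 had the highest cardiac muscle mean of its group, 1.34, together with the highest Tbx5 (1.79) and Tbx3 (1.01). Eln+/+ replicate 2 had the lowest, 0.42, together with the lowest Tbx5 (0.24), Tbx3 (-1.001) and Nkx2-5 (0.0022). Other values did not follow that order. Eln+/+ replicate 4 had the lowest Gata5 of its group (0.22) and less Nkx2-5 (0.43) than replicate 1 (0.72). In Eln+/- the lowest cardiac muscle mean, 1.33, was that of replicate 2, but the lowest Tbx5 (0.84), Tbx3 (0.81) and Nkx2-5 (0.38) were those of replicate 4, at 1.51. When a fit of the 8 valves held the cardiac muscle mean as covariate, the genotype difference was -0.31 for Tbx5, -0.35 for Tbx3 and -0.32 for Nkx2-5, and with the smooth muscle mean it was 0.22, 0.21 and -0.13. The genotypes hardly overlap in the cardiac muscle mean, so these fits cannot separate it from the genotype. The difference in sex cannot be told apart from the genotype here except through the few arrays that break the coincidence. With Xist less the mean of Y-linked genes as covariate, the valve difference of Tbx5 was 1.57 (adjusted p = 0.598).

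**Figure D4:**
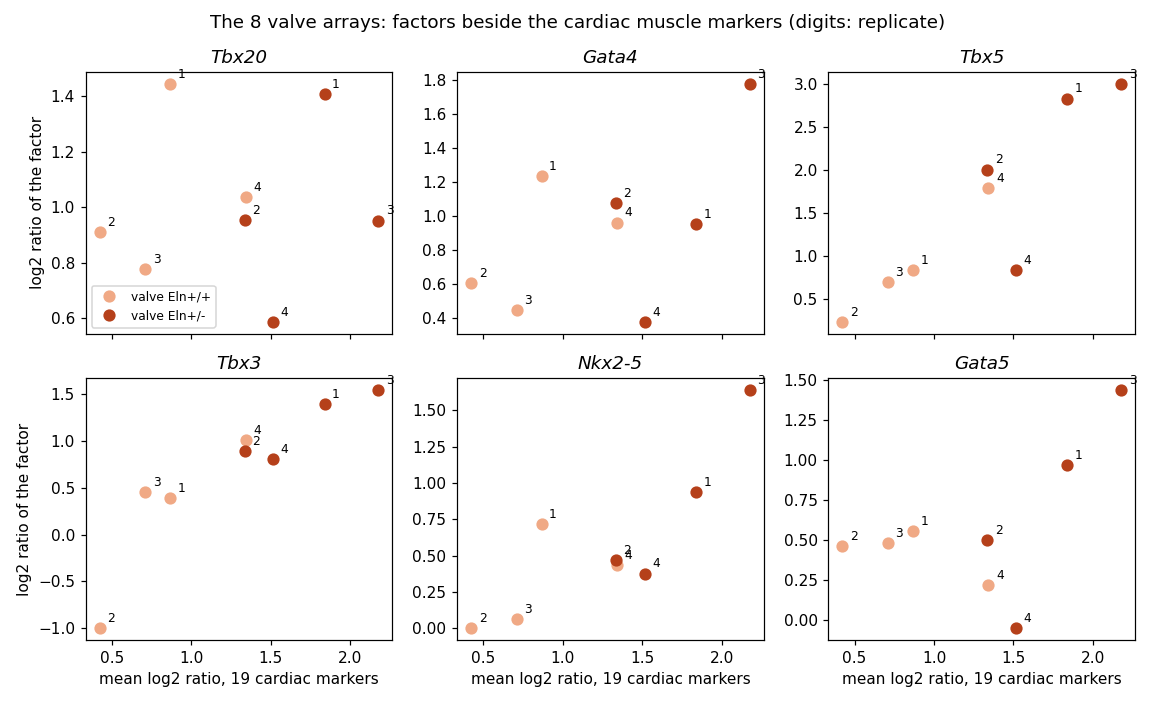
Log2 ratio of 6 factors (y axis, own scale in each panel) against the mean log2 ratio of 19 cardiac muscle markers (x axis) on the 8 valve arrays, Eln+/+ in light and Eln+/- in dark red, with the replicate number beside each point. Eln+/+ replicate 4, at 1.34 on the x axis, lies beside Eln+/- replicate 2, at 1.33, for Tbx5, Tbx3 and Nkx2-5, and the highest Tbx20 value, 1.45, is that of Eln+/+ replicate 1, at 0.87 on the x axis.

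Whether the genotype difference itself depended on the tissue was tested by the interaction, the valve difference minus the aorta difference. None of the 45037 probe sets passed (0%), and 1 of the 10 genes, Tbx5, had an unadjusted p under 0.05 by limma, beside 1543 of 18193 genes (8.48%). That count is over representative probe sets; of all 27, 4 had an unadjusted p under 0.05. The interaction of Tbx5 was 1.60 ± 0.56 (SE, unadjusted p = 0.0115, adjusted p = 0.619) and that of Tbx3 was 1.41 ± 0.66 (SE, adjusted p = 0.647). With the second Tbx5 probe set the interaction was 0.83 ± 0.41 (SE, adjusted p = 0.659). For Gata5 and Nkx2-5 it was 0.73 ± 0.43 (SE) and 0.58 ± 0.34 (SE), each with an adjusted p of 0.693. The 3 other probe sets with an unadjusted p under 0.05 were those of Tbx3 at 1.51 ± 0.65 (SE, adjusted p = 0.635) and 0.94 ± 0.32 (SE, adjusted p = 0.619) and the further Gata6 probe set, at -0.53 ± 0.20 (SE, adjusted p = 0.626). The calls of these 4 genes in Eln+/- and not in Eln+/+ tissue are thus not shown to differ between the genotypes.

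Some other genes of the same families were called between the tissues. Over all genes, 1.19% were called higher and 0.126% lower in Eln+/+, and 4.41% and 2.65% in Eln+/-. Of 11 further T-box genes measured, 0 were called in Eln+/+ and 2 in Eln+/-, with medians of -0.024 and -0.14. Tbx18, a factor of epicardium and of the sinus node, fell in the valve by 1.60 (adjusted p = 0.0021) in Eln+/-, and Tbx4, a limb and lung factor, rose by 0.95 (adjusted p = 0.0090). In Eln+/+ the same genes gave -0.84 (adjusted p = 0.19) and 0.52 (adjusted p = 0.291). Of 6 other GATA factors and cofactors, Trps1, an atypical GATA repressor of cartilage, rose by 1.40 in Eln+/+ (adjusted p = 0.0479) and gave 0.97 in Eln+/- (adjusted p = 0.0884). Gata2, the GATA factor of blood and endothelium, gave 0.76 in Eln+/+ (adjusted p = 0.14). The medians of the 6 were 0.37 and 0.31. In the reference gene order Tbx4 is the neighbour of Tbx2, and Tbx5 that of Tbx3.

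Among 20 further cardiac transcription factors, 1 was called higher in the valve in Eln+/+ and 3 higher and 1 lower in Eln+/-, with medians of -0.090 and 0.16. Hopx, a homeodomain-only cofactor of cardiac muscle, rose by 3.01 (adjusted p = 0.0444) in Eln+/+ and by 4.46 (adjusted p = 0.00111) in Eln+/-. Smyd1, a muscle methyltransferase, gave 3.79 (adjusted p = 0.0555) in Eln+/+ and rose by 5.91 (adjusted p = 0.00107) in Eln+/-. Irx4, a ventricular Iroquois factor, rose by 1.37 (adjusted p = 0.018) in Eln+/-, and Foxc1, a forkhead factor of vessels and valves, fell by 0.98 (adjusted p = 0.0267). In the Eln+/- against Eln+/+ valve comparison the lowest p of this list was that of Irx3, another Iroquois factor, with a difference of 1.33 (adjusted p = 0.369).

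Genes known as targets of these factors in chamber muscle had higher median differences than the factors. Of 15 measured, 9 rose in the valve in Eln+/+ and 11 in Eln+/-, and 0 fell, with medians of 2.51 and 3.31. In each genotype 2 of the 15 were lower in the valve without a call, in Eln+/+ Gja5 at -0.58 and Bmp10 at -0.17. Nppa, the atrial natriuretic peptide gene activated by Tbx5, Gata4 and Nkx2-5, rose by 6.79 in Eln+/+ (adjusted p = 0.000384). Myl7, the atrial myosin light chain, rose by 6.33 (adjusted p = 0.000286), Ankrd1, a stress-responsive sarcomere protein, by 4.32 (adjusted p = 0.00647), and Atp2a2, the calcium pump of the sarcoplasmic reticulum, by 2.01 (adjusted p = 0.0106). Nppa, Myl7 and others of these genes also stand among the 19 cardiac muscle markers, so both lists share values. Between the valve genotypes 14 of the 15 were higher in Eln+/- (median 0.75), and 0 were called.

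Of 8 pacemaker and conduction genes measured, 1 rose in the valve in Eln+/+ and 5 in Eln+/-, with medians of 0.94 and 2.10. In each genotype 2 of the 8 were lower in the valve without a call, in Eln+/+ Isl1 at -0.092 and Gjc1 at -0.070. Cacna2d2, a calcium channel subunit, rose by 4.25 in Eln+/+ (adjusted p = 0.000181) and by 4.81 in Eln+/- (adjusted p = 7.9e-05). Kcne1, a potassium channel subunit, gave 1.99 (adjusted p = 0.0668) in Eln+/+ and rose by 3.49 (adjusted p = 0.000612) in Eln+/-. Popdc2, Cacna1g and Cntn2, the last a cell adhesion molecule of the conduction system, rose by 2.07, 1.72 and 2.13 in Eln+/-. Cushion and valve genes were called in both genotypes as well. Of 15, 4 rose in Eln+/+, with a median of 0.86 over the list, and 4 rose and 1 fell in Eln+/-, with a median of 0.50. Sox9, the cartilage and valve matrix factor, rose by 1.54 (adjusted p = 0.00171) and 2.07 (adjusted p = 0.000124), and Cdh11, the mesenchymal cadherin, by 1.54 (adjusted p = 0.00818) and 0.96 (adjusted p = 0.0345). Snai2, a factor of the mesenchymal transition, and Bmp2, a cushion ligand, rose by 1.03 (adjusted p = 0.0375) and 0.96 (adjusted p = 0.039) in Eln+/+. Postn, a matrix protein of cushions and fibrous tissue, fell by 0.75 (adjusted p = 0.0445) in Eln+/-. No gene of the 6 lists was called between the genotypes in either tissue.

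Within the groups, the genes whose deviations followed those of the factors most closely were sought. The measure was Pearson's r of deviations from the 4 group means over the 16 arrays, given as a description, since the arrays share their normalization and the specimens differ in cardiac muscle marker signal. The genes named are those of highest r among all other genes, and with 16 arrays such a choice alone can give high r. For Tbx5 the closest were Tmem163 (r = 0.93), Mybphl (0.92), a myosin-binding protein of atrial muscle, and Cacna1h (0.90), a T-type calcium channel. Nkx2-5 was followed by Cntn2 (0.90), Ttr (0.89) and 4921524L21Rik (0.89), and Tbx20 by Rpl35 (0.88), Opa3 (0.81) and Des (0.81), the muscle intermediate filament desmin. Tbx3 had Lias (0.89), Nol8 (0.89) and Gpihbp1 (0.88), Gata4 had Anapc11 (0.88), Hspb3 (0.86) and Prorp (0.86), and Gata5 had Plaat1 (0.81), Ybx3 (0.79) and Tm9sf1 (0.79). Likeness within groups did not always extend to the values themselves. Over the 16 arrays, group differences included, r was 0.95 for Des and -0.16 for Rpl35 with Tbx20, -0.20 for Anapc11 with Gata4 and 0.090 for Plaat1 with Gata5.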

How the data were processed

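Total RNA of 16 specimens was amplified and hybridised to 1-colour Affymetrix mouse arrays. Per the submitters' processing notes RMA was used. The deposited values are a linear ratio per probe set; its division by the median over the 16 arrays is not stated by the authors and was read from the values (median 1, to within 1e-06, in 39827 of 45101 probe sets and in all 27 of the factors). Depth does not apply, no signal level is kept, and the number of arrays limits the precision. Genome build and software versions of the authors are not given in the sources used here.

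Log2 of the ratio was fitted for 45037 probe sets, without the 64 controls, by limma 3.58.1 (lmFit, eBayes, R 4.3.3) with 4 group means over the 16 arrays (residual degrees of freedom 12, prior 3.60). Two-sided p-values were adjusted by Benjamini-Hochberg over all probe sets, with a threshold of 0.05. The platform annotation gave 34945 probe sets 1 gene, 932 several and 9160 none, and a gene is its probe set of highest SD. The code was tested on simulated data.

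The 10 genes were all named, with the tissue differences of all 27 probe sets. For the genotype comparisons and the interaction, probe sets other than the representative were given only in part. From each list up to 4 genes of lowest p past the threshold in the Eln+/+ tissue comparison, and up to 2 of lowest p otherwise, were to be named; Irx4, Foxc1, Popdc2, Cacna1g, Cntn2 and Postn were added after their values were seen. For likeness, 3 genes were taken for each factor called between the tissues. The factors and lists were chosen with earlier results of these data known. Replicate numbers were not taken as pairs. In 0 of 16 pairs of same-numbered arrays did deviations from the group means correlate above 0.1 (r from -0.15 to 0.071). Some of these pairs join unlike genotypes, which cannot share a mouse, and a low r does not show that specimens are unpaired. In Eln+/+, Xist was high in aorta replicate 4 and valve replicate 2, but not in valve replicate 4 or aorta replicate 2. These numbers thus do not mark 1 mouse, and sharing of mice under other numbers is not known. Alternatives were the replicate block, the compared arrays alone, array weights, robust eBayes, centring, quantile normalization, a floor of 0.1, the mean of probe sets, leaving out each array, and covariates for sex-linked, cardiac muscle and smooth muscle genes. Leaving out 2 arrays with T cell markers, or 2 aorta arrays with more cardiac muscle signal, was chosen after seeing the data.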

Additional observations from a re-analysis of the deposited data

How the results depend on the processing

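The number of factors called was 2 between the tissues in Eln+/+, 6 in Eln+/-, and 0 for the genotype in aorta, the genotype in valve and the interaction, and the replicate block left these counts at 2, 6, 0, 0 and 0. Same-numbered arrays correlated best with their own number in 7 of 32 comparisons. The Eln+/+ count was 3 with quantile normalization and without valve Eln+/- replicate 4, Tbx5 being added, and 2 otherwise. The Eln+/- count was 7 with the mean of probe sets, Hand2 being added, 4 without both arrays with T cell marker signal, and 6 otherwise. No call of Tbx20, Gata4, Tbx5, Tbx3, Gata5 or Nkx2-5 ended on leaving out 1 array.

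Small differences changed sign, and the cause was not tested. Between the tissues in Eln+/-, array weights gave -0.083 for Tbx2 and 0.10 for Gata6, quantile normalization 0.015 for Gata6, and leaving out both T cell marker arrays -0.29 and 0.19. In Eln+/+ the mean of probe sets gave 0.097 for Gata6, and leaving out both aorta arrays of higher cardiac muscle mean gave -0.027 for Tbx2. For the genotype in aorta, array weights gave 0.060 for Hand2, the mean of probe sets 0.18 for Gata6, the sex covariate -0.055 for Tbx2, 0.030 for Gata6, 0.22 for Nkx2-5 and 0.098 for Hand2, the smooth muscle covariate 0.11 for Hand2, and leaving out both T cell marker arrays 0.17 for Tbx20 and 0.34 for Hand2. For the genotype in valve, the mean of probe sets gave 0.013 for Tbx20, and the sex covariate 0.096 for Tbx20, 0.025 for Gata6 and 0.023 for Hand2. There the smooth muscle covariate gave -0.35 for Gata4, -0.19 for Gata5, -0.13 for Nkx2-5 and 0.067 for Mef2c, and the cardiac muscle covariate -0.31 for Tbx5, -0.35 for Tbx3, -0.45 for Gata4, -0.21 for Gata5, -0.32 for Nkx2-5 and 0.17 for Mef2c. Leaving out each array in turn moved the tissue difference in Eln+/+ from -0.070 to 0.094 for Tbx2 and from -0.16 to 0.098 for Gata6, and in Eln+/- from -0.092 to 0.32 and from -0.19 to 0.16. The aorta genotype difference then ran from -0.82 to 0.029 for Tbx20, -0.16 to 0.25 for Tbx2, -0.039 to 0.40 for Gata4, -0.31 to 0.049 for Gata6, -0.096 to 0.066 for Nkx2-5 and -0.31 to 0.17 for Hand2. In the valve it ran from -0.21 to 0.068 for Tbx20 and from -0.0086 to 0.46 for Gata4.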
